A study of Mus musculus with 8 samples.

Results

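Cilia that beat are built from an axoneme, a ring of doublet microtubules around a central pair, and are moved by dynein motors set along the doublets in an outer and an inner row. The forkhead factor Foxj1 switches on much of this apparatus in cells that carry motile cilia, together with RFX factors that bind a promoter element called the X-box. Most other cells carry a single primary cilium, which is built by the same intraflagellar transport trains and kinesin-2 motor but lacks dynein arms, and vertebrate cells use it to receive hedgehog signals. The epithelium of the colon is not known as a multiciliated tissue. The genes described here are 8 that serve cilia: Dnaic1 (also called Dnai1), an intermediate chain of the outer dynein arm, Cfap299, named as a cilia and flagella associated protein, Dnali1, a light intermediate chain of the inner dynein arm, Foxj1, Tekt1, a tektin that lies along the doublet microtubules, Spag6, a protein of the central pair, Ift88, a core protein of intraflagellar transport, and Kif3a, a motor subunit of kinesin-2. Dnaic1 and Cfap299 were chosen by their measured log2 difference between knockout and wildtype colons on these same arrays, and the others were added as context, so the differences between genotypes are given for all 8 as a description and without a test.

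Probes were taken by gene symbol in the platform annotation, which names 16593 genes. It holds 7 of the 8 genes. No probe carries the symbol Spag6, but 2 carry Spag6l, a near relative of Spag6 that gene tables also list under that name, and their values are given as those of Spag6l. Of the 7 genes, 6 were tested, which means that 4 or more of the 8 arrays detected at least 1 of their probes (detection p under 0.05), and 10184 genes were tested in all. Dnali1 did not reach that limit.

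The arrays measured RNA from whole colons of C57BL/6 mice, 4 labelled wildtype (Villin-CreERT2-Ihh+/+) and 4 labelled Indian Hedgehog knockout (Villin-CreERT2-Ihhfl/fl). Both genotypes carried the tamoxifen-inducible recombinase, which the Villin promoter makes in the intestinal epithelium, and both received 1 mg of tamoxifen on 5 successive days and were killed at day 7. Deletion was therefore directed to epithelial cells, whereas the RNA came from all layers of the colon wall. In such bulk RNA, fewer cells of a type and less RNA per cell cannot be told apart. The labels do not give the age or sex of the mice, and nothing beyond the titles states that the 4 colons of a genotype came from 4 animals, so the spread between samples may in part be technical. The comparison asks which transcripts differ in the colon once epithelial Ihh is targeted.

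All 8 arrays lay on 1 beadchip, the wildtype at positions A to D and the knockout at E to H, so that position and genotype cannot be told apart. Between 14465 and 15040 of the 25697 probes were detected per array. On the normalised log2 scale the lowest detected signal was 5.44 to 5.51 on wildtype and 5.50 to 5.57 on knockout arrays. The same normalised value could therefore count as detected in a wildtype colon and not in a knockout colon. Ihh, the targeted gene, had log2 intensities of 10.2 to 10.5 in wildtype and 9.03 to 9.56 in knockout colons, a difference of -1.05 (SE 0.149, n = 4 each). Knockout 4 had the lowest mean correlation with the other arrays (0.956). Xist against Y-linked probes gave a female pattern in 3 wildtype and 1 knockout mice and a male pattern in the other 4. Transcripts of skeletal muscle and of skin differed many-fold between single colons of both genotypes.

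The promoters of these genes are shown first because the X-box is the element that motile cilia genes are known to share. The RefSeq table (GRCm38.p6) holds a window from 250 bases before to 50 bases after the start of Dnaic1, Dnali1, Tekt1, Spag6, Spag6l, Ift88 and Kif3a. The element was searched on both strands in 2 ways, as the RFX core GTTGCC, and as a full form, GTTGC followed after a gap of 3 or 4 bases by GNNAC, where the latter spelling was chosen after these windows had been read. Matches can overlap, since the full form may contain the core. In the windows of Dnaic1, Tekt1 (the upstream one of 2 starts), Spag6l and Ift88 below, written along the strand of the gene, capitals mark these matches.
Dnaic1 promoter, GRCm38.p6 chr4:41569544-41569843, plus strand: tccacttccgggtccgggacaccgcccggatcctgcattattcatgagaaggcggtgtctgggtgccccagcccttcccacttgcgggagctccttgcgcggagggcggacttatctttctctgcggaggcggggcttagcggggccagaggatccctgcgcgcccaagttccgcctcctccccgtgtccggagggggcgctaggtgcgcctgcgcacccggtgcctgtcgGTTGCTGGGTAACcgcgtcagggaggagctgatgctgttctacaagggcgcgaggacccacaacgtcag
Tekt1 promoter, GRCm38.p6 chr11:72361833-72362132, minus strand: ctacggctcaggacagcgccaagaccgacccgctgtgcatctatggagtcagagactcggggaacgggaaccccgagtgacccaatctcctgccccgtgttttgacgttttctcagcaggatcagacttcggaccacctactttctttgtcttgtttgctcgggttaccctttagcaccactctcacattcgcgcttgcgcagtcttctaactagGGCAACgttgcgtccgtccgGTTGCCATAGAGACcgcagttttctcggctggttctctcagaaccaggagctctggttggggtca
Spag6l promoter, GRCm38.p6 chr16:16829314-16829613, minus strand: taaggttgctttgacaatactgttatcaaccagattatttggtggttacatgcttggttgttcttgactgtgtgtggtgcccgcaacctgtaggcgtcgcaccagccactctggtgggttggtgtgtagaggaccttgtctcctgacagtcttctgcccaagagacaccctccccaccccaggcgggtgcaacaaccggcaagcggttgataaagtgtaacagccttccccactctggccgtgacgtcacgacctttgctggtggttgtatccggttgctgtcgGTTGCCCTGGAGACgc
Ift88 promoter, GRCm38.p6 chr14:57423821-57424120, plus strand: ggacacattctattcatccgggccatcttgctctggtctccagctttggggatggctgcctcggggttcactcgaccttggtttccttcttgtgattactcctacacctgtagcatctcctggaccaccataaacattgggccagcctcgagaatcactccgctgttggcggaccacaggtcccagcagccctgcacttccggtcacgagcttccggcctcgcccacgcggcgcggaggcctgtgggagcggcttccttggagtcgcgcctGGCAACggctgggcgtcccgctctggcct

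The full form was found in the windows of Dnaic1, Tekt1 and Spag6l, and in 3.12% of all 32851 promoter windows. The Dnaic1 window held 0 matches to the core, which was the spelling named beforehand. Since the full form was spelled after these windows had been read, its matches here cannot be weighed against that share. In Dnaic1 the match lay 19 to 7 bases before the start, and in Tekt1 15 to 2 bases before it. In Spag6l it lay 35 to 48 bases into the transcribed part. Spag6, Ift88 and Kif3a held the core alone, which occurs in 12.5% of windows, and the windows of Dnali1 and of the downstream start of Tekt1 held neither form. The forkhead motif GTAAACA (3.65% of windows) and the GLI motif TGGGTGGTC (0.253%), searched on both strands, were in none of these windows. A match is a run of letters and not a bound site.

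Dnaic1 was the member with the lowest signal in knockout relative to wildtype colons. Its brighter probe had log2 normalised intensities of 7.12, 7.13, 7.28 and 7.35 in wildtype 1 to 4, and of 5.14, 5.61, 5.83 and 5.53 in knockout 1 to 4. Every wildtype colon lay above every knockout colon, and the gap between the groups was wider than the spread within either. The means were 7.22 ± 0.114 and 5.53 ± 0.287 (SD, n = 4), a difference of -1.69 (SE 0.156), or a 3.23-fold lower signal. Among the 10184 tested genes it had the 12th lowest difference, a rank that its choice by this contrast favours. The linear model fitted across all probes with limma called 2 genes (0.0196%) lower and 0 (0%) higher at an adjusted p under 0.05, while 442 (4.34%) were lower and 682 (6.70%) higher at an unadjusted p under 0.05. Dnaic1 is among the 2 called genes, and since that contrast chose it, this count is not evidence of its own. The call was lost in several other settings: 0 genes were called lower without background correction, in the authors' table, with the replicate block, with sex as a term, and without any 1 of the 4 wildtype mice, knockout 2 or knockout 4.

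The second probe of Dnaic1 gave the same order with a smaller gap. Its log2 values were 6.01, 5.91, 6.58 and 6.10 in wildtype 1 to 4 and 5.72, 5.49, 5.55 and 4.78 in knockout 1 to 4. The groups again did not overlap, although the highest knockout colon came close to the lowest wildtype colon. The difference was -0.77 (SE 0.228), so the size of the Dnaic1 difference depended on the probe, and the mean of both probes gave -1.23. This probe was detected in 4 wildtype and 2 knockout colons, so these values rest in part on undetected signals. Without background correction its difference was -0.25, or 1.19-fold. Where on the transcript the probes bind was not analysed here.

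Before normalisation, Dnaic1 was weak on all arrays, and its distance from background carries the result. Raw intensity of the brighter probe was 286, 269, 336 and 311 in wildtype and 171, 183, 220 and 192 in knockout colons. The lowest signal detected on the same arrays was 191, 183, 201 and 188 in wildtype and 187, 181, 205 and 193 in knockout colons. Wildtype signals were thus 46.7% to 66.9% above the lowest detected signal of their array, whereas knockout signals lay between 8.26% below and 7.33% above it. With a detection p of 0.189 in knockout 1 and 0.0551 in knockout 4, the probe was not detected in these 2 colons, and it was detected in knockout 2 and 3. At such low signal the fold depends on how background is removed: without background correction the difference was -0.63, or 1.55-fold, and with an offset of 50 in place of 16 it was -1.19.

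**Figure D1:**
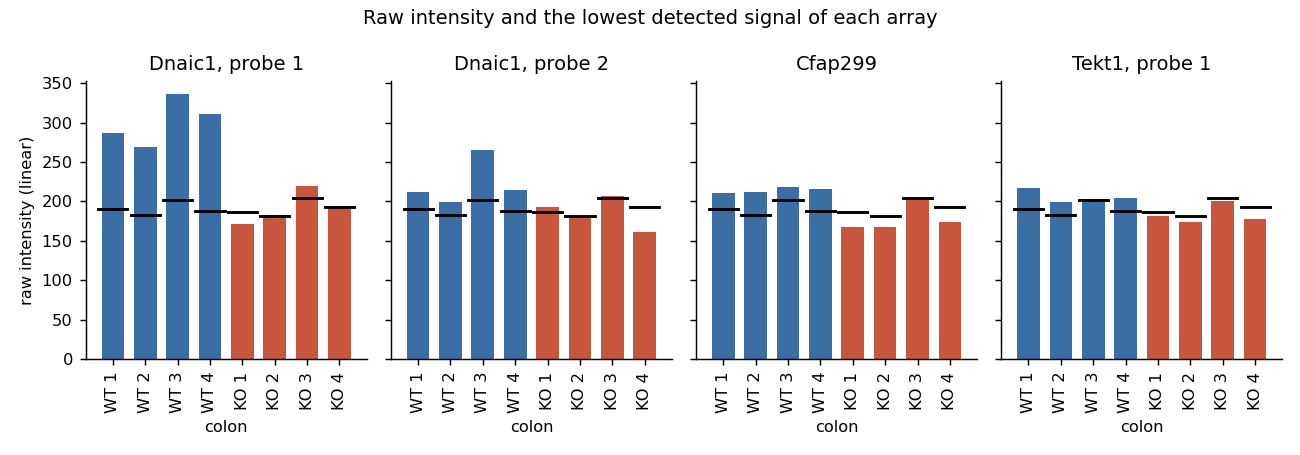
Raw intensity (linear scale, bars from 0) of both Dnaic1 probes, Cfap299 and the brighter Tekt1 probe in each of 4 wildtype (WT) and 4 knockout (KO) colons, with a black line at the lowest signal detected on the same array. The first Dnaic1 probe stands 46.7% or more above the line in wildtype colons, and Cfap299 and Tekt1 lie just above it in wildtype and below it in knockout colons.

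Cfap299 showed a smaller difference at a lower level. Its log2 values were 5.98, 6.22, 5.81 and 6.13 in wildtype 1 to 4 and 5.05, 5.18, 5.45 and 5.03 in knockout 1 to 4. The groups did not overlap, and knockout 3 was the knockout colon nearest to wildtype, as it was for the brighter Dnaic1 probe. The means of 6.03 ± 0.180 and 5.18 ± 0.193 (SD, n = 4) differed by -0.86 (SE 0.141), a value that includes knockout signals below detection. All 4 wildtype colons and 0 knockout colons had a detected Cfap299 signal, so on this background-corrected scale only a bound can be given, of at least 1.40-fold lower in knockout. For this bound, each knockout array counts at its lowest detected signal, or at the probe's value where that is higher. Raw signals were 8.18% to 16.02% above the lowest detected signal in wildtype and 1.08% to 10.3% below it in knockout colons. The bound does not hold for other scales, since without background correction the difference was -0.26, or 1.20-fold.

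Tekt1, a filament protein of the doublet wall, had a similar pattern closer to background. The brighter probe had log2 values of 6.11, 5.91, 5.49 and 5.89 in wildtype and 5.43, 5.38, 5.39 and 5.12 in knockout colons. Wildtype 3 came within the reach of the knockout group, yet the groups did not overlap. The difference was -0.52 (SE 0.152), with detection in 4 wildtype and 0 knockout colons and a bound of at least 1.23-fold lower on the background-corrected scale. Without background correction the difference was -0.15, or 1.11-fold. A second Tekt1 probe was detected in 2 wildtype and 0 knockout colons and was not tested, and its groups overlapped (log2 5.30, 5.52, 5.49 and 5.44 in wildtype, 5.33, 4.81, 5.03 and 5.02 in knockout). Of all tested genes, 16 (0.157%) were detected in 4 wildtype and 0 knockout colons, Cfap299 and Tekt1 among them. The reverse, 0 wildtype and 4 knockout colons, held for 7 (0.0687%). Such counts also depend on the lowest detected signal, which on the log2 scale was mostly higher on knockout arrays. Tekt1, like Cfap299, entered the test only through the group in which it was brighter.

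Foxj1, the regulator of the motile programme, was at the edge of detection. Its log2 values were 5.58, 5.67, 5.88 and 5.70 in wildtype and 5.54, 5.27, 5.59 and 5.51 in knockout colons. The groups overlapped, with knockout 3 slightly above wildtype 1. The difference was -0.23 (SE 0.120), and without background correction it was -0.07. The probe was detected in 4 wildtype colons and in knockout 3 only, with raw signals between 5.47% below and 10.01% above the lowest detected signal over all 8 arrays.

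Dnali1 and Spag6l gave no signal above background. The Dnali1 probe had detection p values of 0.133 to 0.910 and log2 values of 4.75 to 5.22 in wildtype and 4.58 to 4.92 in knockout colons. The 2 Spag6l probes lay between 4.51 and 5.07 in wildtype and between 4.61 and 5.08 in knockout colons, with detection in 0 of 8 arrays. No difference can be read from these probes, and they do not show that the transcripts are absent.

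Ift88 and Kif3a, which primary cilia need as well, were clearly detected in all 8 colons. Ift88 had log2 values of 7.79, 7.59, 8.18 and 7.74 in wildtype and 7.83, 7.75, 7.84 and 8.07 in knockout colons, which overlapped throughout. The difference was 0.05 (SE 0.148). The brighter Kif3a probe had 9.17, 8.91, 8.03 and 8.20 in wildtype and 8.13, 8.26, 7.81 and 8.52 in knockout colons. Its difference of -0.40 (SE 0.270) came from high values in wildtype 1 and 2, and the groups overlapped. The second Kif3a probe differed by -0.11 (SE 0.149), with 7.77 to 8.32 in wildtype and 7.83 to 8.21 in knockout colons.

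**Figure D2:**
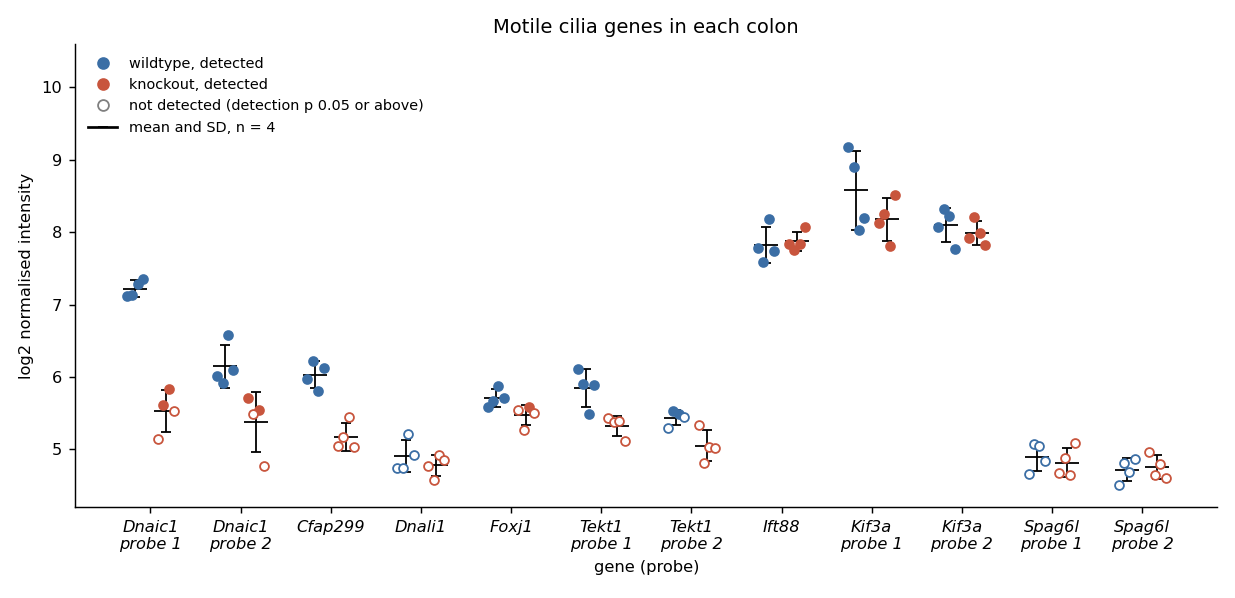
Log2 normalised intensity of every probe of the cilia genes and Spag6l in 4 wildtype (blue) and 4 knockout (red) colons, with open points where the probe was not detected and black marks for mean and SD. The first Dnaic1 probe has the widest gap between the groups, at about 7.2 in wildtype and 5.5 in knockout colons, while the Ift88 and Kif3a points overlap.

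Around these members, 7 lists of motile axoneme genes were described: outer dynein arm, inner dynein arm, dynein arm assembly, radial spoke and central pair, nexin-dynein regulatory complex, tektins with other doublet and CFAP proteins, and regulators of motile ciliogenesis. Together they list 108 genes, of which 67 are on the array. In no colon were 30 of the 67 detected (44.8%), against 27.6% of all named genes, and 18 (26.9%) were detected in all 8, against 53.5%. Leaving the 8 members aside, 23 genes of these lists were tested, of which 11 were lower and 12 higher in knockout, with a median log2 difference of 0.02, where the median of all tested genes was -0.0047. At adjusted p under 0.05 limma called 0 of the 23 (0.0196% of all tested genes were called lower and 0% higher), and at an unadjusted p under 0.05 there were 2 lower and 1 higher. Apart from the members, the measured axoneme genes thus lay on both sides of 0.

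Of 14 listed outer dynein arm genes, 9 are on the array and 3 were tested. The tested genes other than Dnaic1 did not follow it. Dnah8, a dynein heavy chain, differed by 0.16 (SE 0.230, adjusted p = 0.798) and Ccdc114, which helps to dock the arm on the doublet, by 0.05 (SE 0.192, adjusted p = 0.934). Both were detected in all 8 colons. Dnah5 and Dnah11, further heavy chains, Dnal1, a light chain, and Nme8 were detected in none. Of the inner arm, Wdr78, an intermediate chain, differed by 0.02 (adjusted p = 0.981), and Dnah2 was not detected. Wdr63, also of the inner arm, was detected in 2 wildtype and 0 knockout colons and was not tested.

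Factors that assemble dynein arms in the cytoplasm had 4 tested genes, of which 3 were higher. Dnaaf2 differed by 0.31 (SE 0.167, adjusted p = 0.516), Spag1 by 0.17 (adjusted p = 0.824) and Dnaaf3 by 0.11 (adjusted p = 0.859). Among 6 radial spoke and central pair genes 4 were lower. Rsph9, a spoke head protein, had 7.49 ± 0.203 in wildtype and 7.12 ± 0.118 in knockout colons (SD, n = 4), a difference of -0.37 (SE 0.133, adjusted p = 0.404). Nme5, also of the radial spoke, differed by -0.32 (SE 0.151, adjusted p = 0.474) and Rsph3a by -0.33 (SE 0.182, adjusted p = 0.528). Nme5 was near background, with detection in 4 wildtype and 1 knockout colons. Rsph1, another spoke head protein and a marker of motile ciliated cells, was detected in all 8 colons and differed by 0.02 (SE 0.130). Of the nexin-dynein regulatory complex, which links neighbouring doublets, Gas8 differed by 0.22 (SE 0.119, adjusted p = 0.513) and Ccdc65 by -0.01 (adjusted p = 0.975).

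In the list of tektins with other doublet and CFAP proteins, beside Cfap299 and Tekt1, Cfap52, a protein inside the doublet microtubules, was lower by a log2 difference of -0.40 (SE 0.161, adjusted p = 0.438), with means of 6.92 ± 0.237 in wildtype and 6.52 ± 0.221 in knockout colons. Mns1, also found inside the doublets and named for its role in meiotic cells, went the other way. Its levels were 7.91 ± 0.171 in wildtype and 8.49 ± 0.408 in knockout colons, a difference of 0.57 (SE 0.202, adjusted p = 0.397), and its groups did not overlap. Over all tested genes, groups lay apart with knockout lower in 2.83% and with knockout higher in 4.85%. Neither Cfap52 nor Mns1 passed the threshold.

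Regulators of multiciliated cell fate were largely beyond the reach of the arrays. Mcidas, Gmnc and Deup1, which act before Foxj1 or in the making of many basal bodies, and Rfx3 were detected in no colon. Trp73 and Ccno were each detected in 1 colon and Foxn4 in 2. Rfx1 and Rfx2, which are also active outside ciliated cells, were detected in all 8 and differed by 0.13 (SE 0.133, adjusted p = 0.708) and -0.11 (SE 0.307, adjusted p = 0.909). Of 8 markers of motile ciliated cells that had been listed, Spag6l (for Spag6), Dnah5, Mcidas and Deup1 were detected in 0 colons, Ccdc39 in 3, Tekt1 in 4, Foxj1 in 5 and Rsph1 in 8. The genes are therefore described here one by one, and no ciliated cell type is named from them.

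**Figure D3:**
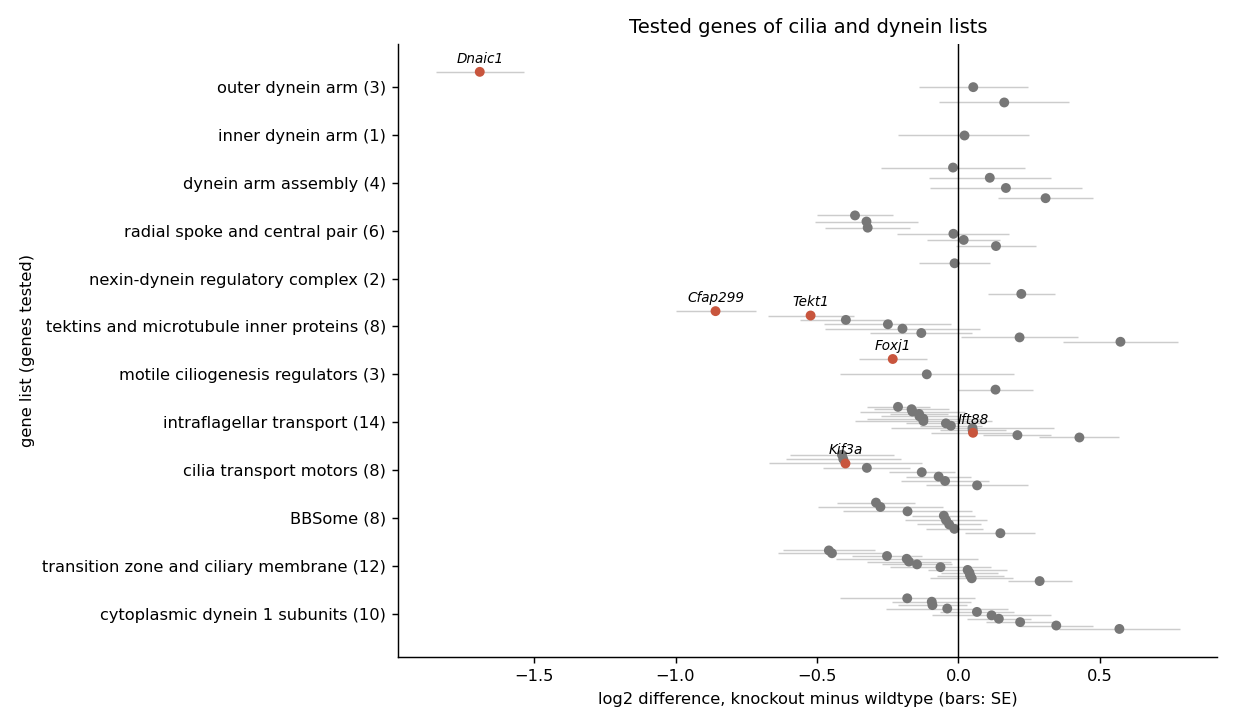
Log2 difference (knockout minus wildtype, bars SE) of each tested gene in 12 lists of cilia and dynein genes, with the number tested in brackets and the members in red. Dnaic1 at -1.69 lies apart from the other genes, Cfap299 and Tekt1 follow, and most genes of every list lie within 0.5 of 0.

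The machinery that primary and motile cilia share was measured more fully. The 4 lists cover intraflagellar transport, its motors, the BBSome cargo adaptor with factors that assemble it, and the transition zone with the ciliary membrane. They hold 68 genes, of which 56 are on the array and 42 were tested. Without Ift88 and Kif3a, 29 of 40 (72.5%) were lower and 11 higher, where 50.9% of all tested genes were lower, with a median log2 difference of -0.10, which was -0.04 over the lists with these 2 genes when knockout 4 was left out. limma called 0 of the 40 at adjusted p under 0.05, and at an unadjusted p under 0.05 there were 2 lower and 2 higher. Groups lay apart in 2 of the 40 with knockout lower and in 2 with knockout higher, beside 2.83% and 4.85% of all tested genes.

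The medians and counts of the single lists include Ift88 and Kif3a. The medians of the 4 lists were -0.08 for intraflagellar transport, -0.23 for its motors, -0.05 for the BBSome and -0.11 for the transition zone and ciliary membrane. Differences between lists were not tested. Of 14 intraflagellar transport genes 9 were lower, and Ift172, a protein of the same train complex as Ift88, had 11.3 ± 0.199 in wildtype and 11.7 ± 0.174 in knockout colons (difference 0.43, SE 0.141, adjusted p = 0.387). Ift43 differed by -0.21 (adjusted p = 0.504) and Ift27 by 0.21 (adjusted p = 0.535). Of 8 motor genes 7 were lower, among them Kif3b and Kif3c, the partners of Kif3a in kinesin-2, at -0.41 (SE 0.204, adjusted p = 0.489) and -0.41 (SE 0.185, adjusted p = 0.467), and Dync2li1 of the returning dynein at -0.32 (SE 0.154, adjusted p = 0.474).

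Of 8 genes of the BBSome list 7 were lower, with Ttc8 at -0.29 (SE 0.139, adjusted p = 0.475). Bbs12, an assembly factor, differed by -0.28 (adjusted p = 0.637) and Bbs7 by 0.15 (adjusted p = 0.650). Of 12 genes of the transition zone and ciliary membrane 7 were lower. Ahi1 differed by -0.46 (SE 0.162, adjusted p = 0.397), Cc2d2a by -0.45 (SE 0.190, adjusted p = 0.4501) and Nphp4 by 0.29 (SE 0.113, adjusted p = 0.427). None of these genes passed the threshold.

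Cytoplasmic dynein 1, which carries cargo along microtubules in all cells, is related to axonemal dynein but has its own intermediate chains. Its chains Dync1i1 and Dync1i2, the relatives of Dnaic1, differed by 0.12 (SE 0.211) and 0.14 (SE 0.113). Of 10 tested subunits 6 were higher and 0 passed the threshold. The light chains Dynll1, Dynlt1b and Dynlrb1 differed by 0.35 (SE 0.129, adjusted p = 0.413), 0.57 (SE 0.215, adjusted p = 0.419) and 0.22 (SE 0.121, adjusted p = 0.524).

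**Figure D4:**
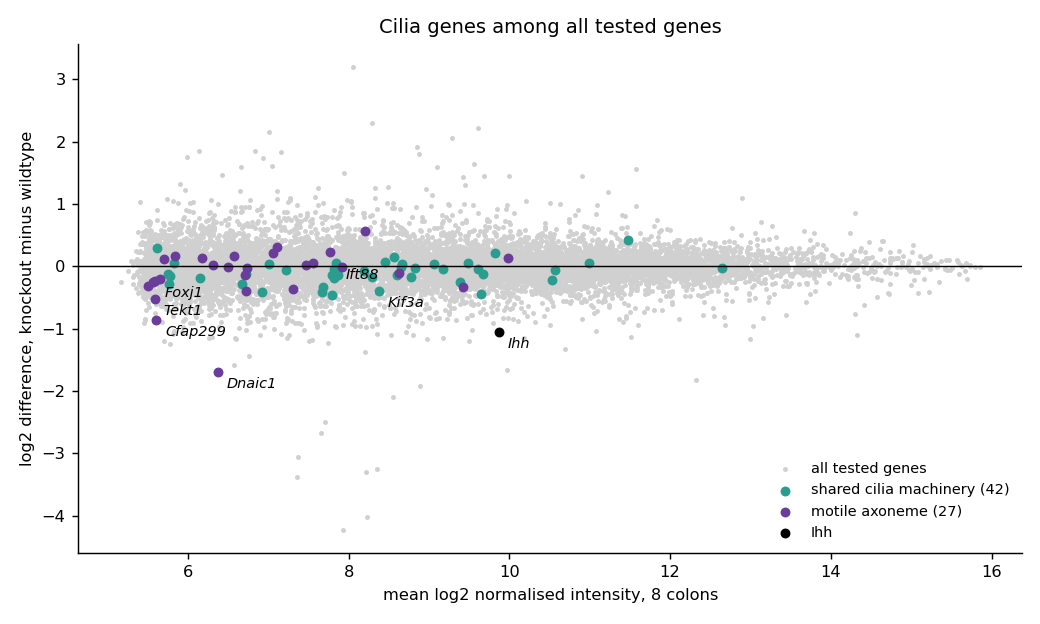
Log2 difference (knockout minus wildtype) against mean log2 intensity over 8 colons for all tested genes (grey), with motile axoneme genes (purple, 27), shared cilia machinery (green, 42) and Ihh (black). Dnaic1 lies below the body of the genes of its brightness, Cfap299 and Tekt1 lie at the dim end near its lower edge, and the other cilia genes lie inside it.

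Genes of the same brightness as the dim members lay about evenly on both sides of 0. The 1748 tested genes with a mean log2 intensity from 5 to 6.5, a range that holds Dnaic1, Cfap299, Tekt1 and Foxj1, had a median difference of -0.03, and 53.2% of them were lower. Dnaic1, at -1.69, had the lowest difference of these genes, but it was chosen by this contrast, so its place is not evidence of its own. The range was set with the members' values known.

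The tested genes whose signal ran most closely with that of Dnaic1 over the 8 arrays were Zfp354a, a zinc finger gene (Pearson r = 0.954), Hhip, the decoy receptor and hedgehog target (0.952), Cfap299 (0.950), Tmem145 (0.943) and Glp2r, the receptor for glucagon-like peptide 2 (0.933). For Cfap299 they were Tmem145 (0.965), Lysmd4 (0.959), Actc1, cardiac actin (0.955), Dnaic1 (0.950) and Nipsnap2 (0.948). These correlations hold the difference between genotypes, which all these genes share, and the arrays share a beadchip. After the mean of each genotype was subtracted, r with Dnaic1 was 0.734 for Zfp354a, -0.300 for Hhip, 0.482 for Cfap299, 0.404 for Tmem145 and -0.056 for Glp2r. Foxj1, the regulator, had r = 0.707 with Dnaic1 over all arrays and 0.120 within genotypes, and Tekt1 0.770 and -0.242. Within genotypes, r with Cfap299 was 0.725 for Tmem145, 0.823 for Lysmd4, 0.571 for Actc1 and 0.562 for Nipsnap2. Between Dnaic1 and Cfap299, r was -0.199 in wildtype and 0.784 in knockout colons. Many knockout values behind these correlations lay below detection. Of 4 knockout colons, 2 had a detected signal for Dnaic1, 0 for Cfap299, 1 for Foxj1 and 0 for Tekt1. Hhip, Tmem145 and Actc1 were dim as well (mean log2 5.78, 5.46 and 5.70). Little can therefore be read from these correlations.

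Markers of other tissues that a dissected colon can carry were listed too, among them the oviduct, whose lining bears motile cilia. Of 8 oviduct and uterus markers on the array 2 (Pgr and Wnt7a) were detected in no colon and 5 were tested, 3 of them lower. The summed normalised intensity of these 5 was 403 to 3014 in wildtype and 360 to 724 in knockout colons. The highest sum was owed to Ltf in wildtype 4 (log2 11.4). Among colons of male pattern, Ltf was 7.96 and 8.65 in knockout 2 and 4, and 5.00 and 5.63 in wildtype 1 and knockout 3. In these data Ltf is therefore not a marker of female tissue alone. Of 8 testis and sperm markers 7 were detected in no colon and 0 were tested. Of 8 markers of male accessory glands and epididymis 5 were detected in no colon, and the 1 tested, Spink1, is also made in the gut. Skin and stratified epithelium markers, 10 tested and 10 lower, summed to 1550 to 85030 in wildtype and 1820 to 35088 in knockout colons. Their median log2 difference was -0.87, where 50.9% of all tested genes were lower, and 0 passed the threshold. Krt14, a keratin of basal skin cells, ranged over the wildtype colons from log2 6.63 in wildtype 1 to 15.2 in wildtype 4. Dnaic1 was 7.12 and 7.35 in the same colons, its lowest and highest wildtype values. Skeletal muscle markers, 9 tested and 8 higher (median log2 difference 0.53), summed to 976 to 9296 in wildtype and 1587 to 22276 in knockout colons. In the mice whose sex pattern was the less common one of their genotype, wildtype 1 (male) and knockout 1 (female), Dnaic1 was 7.12 and 5.14, and with sex as a term its difference was -1.79. The part of the other tissues and of sex in the Dnaic1 difference was not tested.

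All 9 tested smooth muscle markers had a lower mean in knockout, beside 50.9% of all tested genes, and 0 passed the threshold. Their median log2 difference was -0.49, and their summed intensities of 91509 to 115871 in wildtype and 65700 to 104747 in knockout colons overlapped. Enteric neuron and glia markers had 4 of 6 lower (median -0.28, sums of 914 to 1515 and 682 to 1161). Mesothelium markers had 4 of 5 higher (median 0.28), and colon epithelium markers 5 of 9 lower (median -0.04). The part of smooth muscle and neuron markers in the Dnaic1 difference was not tested.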

How the data were processed

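Gene expression was measured in 8 whole colons, 4 per genotype, on 1 Illumina beadchip. Per the file headers, the deposited raw table holds 1 average intensity and 1 detection p-value for each probe on each array. The authors' second table holds processed intensity values on a linear scale, which match a quantile normalization of the raw values to within 0.0278 on the log2 scale, and it was used as an alternative. The submitters' processing notes name GenomeStudio without a version. Whether background was subtracted is not recorded, and minima of 102.6 to 120.0 were taken to mean that it was not.

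In limma 3.58.1 (R 4.3.3), normexp background correction used the detection p-values, with an offset of 16, before quantile normalization and log2. The test covered 14754 probes, 855 of them unnamed, that 4 or more of the 8 arrays detected at p under 0.05. Genotype was the only term in lmFit and eBayes, tests were two-sided, and the Benjamini-Hochberg adjustment ran across every tested probe. A gene is represented by its brightest tested probe. The fit was tested on simulated data. Promoter sequences are from RefSeq, GRCm38.p6.

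The members and lists were chosen with earlier results of these data known. The genes named are the members, up to 3 genes per cilia or dynein list, ranked by p, the 5 genes most like each of Dnaic1 and Cfap299, up to 2 bright genes per marker list (few of them shown), and some (Cfap52, undetected or single marker genes, Rsph1 and the cytoplasmic intermediate chains) named after their values were seen. The number of arrays and the distance from background are among the limits on precision, and arrays give no counts. The alternatives were no background correction, the authors' table, an offset of 50, median scaling, no filter or a strict filter (detection p under 0.01 on every array), a replicate block, sex as a term, averaging the probes of a gene, and leaving out each mouse.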

Additional observations from a re-analysis of the deposited data

Results flagged for a closer look

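In the knockout group the Tekt1 log2 value of knockout 4 (5.12) lay far below the other 3 knockout colons, which were between 5.38 and 5.43. It was the only such value among 26 sets of 4 values looked at, where chance gives about 1 in 20. Knockout 4 was also the array with the lowest mean correlation with the others, and this Tekt1 probe was detected in 0 of the 4 knockout colons.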

How the results depend on the processing

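The lower signal of Dnaic1, Cfap299, Tekt1 and Foxj1 in knockout kept its direction in all 16 alternatives that gave a value, with ranges of -1.79 to -0.63, -0.95 to -0.26, -0.64 to -0.15 and -0.27 to -0.07. The smallest sizes came without background correction and in the authors' table. The strict detection filter left all 4 genes out. Kif3a kept its direction in 17 of 17 (-0.61 to -0.20) and Ift88, near 0, in 15 of 17 (-0.03 to 0.17). The number of genes that limma called lower was 2, and it was 0 without background correction, in the authors' table, with the strict detection filter, with the replicate block and with sex as a term, and 1 with an offset of 50 and with probes averaged by gene. It was 0 without each wildtype mouse in turn and without knockout 2 or 4, 1 without knockout 3 and 2 without knockout 1, a range of 0 to 2. The number called higher was 0, with a range of 0 to 8 over the mice left out, and 8 without knockout 1. The replicate numbers are not known to mark pairs. Correlations of same-numbered colons were 0.136, 0.210, -0.178 and -0.038, which cannot settle whether samples were paired.

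The medians given here include the members. For the motile axoneme genes this median was -0.02, against 0.02 without the members. With the members it was -0.15 with sex as a term and -0.08 to 0.03 with single mice left out. The median of the shared machinery was -0.10, and -0.12 to -0.04 with single mice left out, the latter without knockout 4. Genes near 0 changed sign: Wdr78 with sex as a term (-0.23) and without single mice (-0.17 to 0.212), Ccdc65 with median scaling (0.013) and without single mice (-0.070 to 0.063), and without single mice Ccdc114 (-0.042 to 0.243), Dnaaf3 (-0.024 to 0.297) and Rfx2 (-0.385 to 0.137). The cause of these shifts was not tested. Distance from background limits Cfap299, Tekt1 and Foxj1, whose values rest on signals near the lowest detected.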
